A study of Mus musculus with 3 samples.

Results

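The genes described here carry glucose into the cell, break it down to pyruvate, and send the pyruvate to lactate or to the mitochondrion. The set is a fixed list of 38 genes: glucose transporters, the enzymes of glycolysis, lactate dehydrogenases, monocarboxylate transporters, pyruvate dehydrogenase and its kinases, and the mitochondrial pyruvate carrier. All 38 were found on the arrays, among 19751 genes that could be named. For each gene the brightest probe was used, whatever its ratio.

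Each of 3 arrays compared 1 culture of polarised mouse T cells, labelled with Cy5, with naive CD4 T cells, labelled with Cy3. The cells came from spleens of C57BL/6 mice 6 to 8 weeks old, were sorted as naive CD4 cells on magnetic beads, and all 3 cultures were kept for 3 days on anti-CD3e and anti-CD28 (10 µg/ml each). The induced regulatory T cell (iTreg) culture also received IL-2 at 0.4 ng/ml, TGF-beta 1 at 5 ng/ml, and blocking antibodies to interferon gamma and IL-4 at 5 µg/ml each. The Th9 culture had IL-2 at 0.2 ng/ml, IL-4 at 1 ng/ml, TGF-beta 1 at 2 ng/ml and anti-interferon gamma at 5 µg/ml. The Th2 culture had IL-2 at 1 ng/ml, IL-4 at 5 ng/ml and anti-interferon gamma at 2 µg/ml. The naive cells were not cultured, and no culture was activated without polarising cytokines, so a ratio over naive holds activation and medium together. There was 1 array per culture, with no dye swap and all on 1 slide. Culture and array position therefore cannot be told apart, and neither can a gene's own dye effect and its difference from naive cells. A dye effect of that kind cancels between cultures.

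Resting T cells draw most of their energy from mitochondrial oxidation. After activation they take up more glucose and turn much of it into lactate even where oxygen is plentiful, a state known as aerobic glycolysis. Several steps have alternative enzymes encoded by different genes, called isoforms here, which differ in kinetics, regulation and tissue. Pyruvate, the end product, is reduced to lactate and exported, or enters the mitochondrion through a carrier and is oxidised by pyruvate dehydrogenase, which its kinases inhibit.

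Many promoters of glycolytic genes are known to hold ACGTG, the core letters bound by hypoxia-inducible factors, and CACGTG, the E-box bound by MYC and related factors. Both words were searched for on both strands in the 250 bases before the transcription start in RefSeq promoters (assembly GRCm38.p6), where 37 of the 38 genes had an entry. A CACGTG contains overlapping ACGTG words on both strands. In the most upstream window of each gene, ACGTG stood in 14 of 37 members (37.8%), against 16.5% of 27025 genes, and CACGTG in 4 members (10.8%), against 6.04% of genes. The 4 promoters below belong to the members with the highest median ratios over naive among those with an ACGTG match, and capitals mark each match on either strand (CACGT is ACGTG read from the other strand).
Slc16a3: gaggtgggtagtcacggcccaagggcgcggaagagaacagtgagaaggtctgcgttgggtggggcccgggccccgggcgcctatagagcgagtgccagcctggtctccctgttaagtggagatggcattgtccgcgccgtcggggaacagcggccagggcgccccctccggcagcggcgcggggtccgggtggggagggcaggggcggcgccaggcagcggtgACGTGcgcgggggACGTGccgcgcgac
Pgk1: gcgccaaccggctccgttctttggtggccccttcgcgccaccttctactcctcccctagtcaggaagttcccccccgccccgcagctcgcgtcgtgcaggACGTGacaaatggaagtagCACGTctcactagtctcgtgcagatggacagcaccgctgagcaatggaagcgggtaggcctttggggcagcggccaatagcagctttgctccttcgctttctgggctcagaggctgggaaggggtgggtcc
Hk2: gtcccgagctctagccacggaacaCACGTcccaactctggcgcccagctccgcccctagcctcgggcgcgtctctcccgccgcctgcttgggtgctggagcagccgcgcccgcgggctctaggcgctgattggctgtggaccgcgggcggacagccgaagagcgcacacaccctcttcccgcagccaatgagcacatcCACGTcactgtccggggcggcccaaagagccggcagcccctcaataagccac
Pgam1: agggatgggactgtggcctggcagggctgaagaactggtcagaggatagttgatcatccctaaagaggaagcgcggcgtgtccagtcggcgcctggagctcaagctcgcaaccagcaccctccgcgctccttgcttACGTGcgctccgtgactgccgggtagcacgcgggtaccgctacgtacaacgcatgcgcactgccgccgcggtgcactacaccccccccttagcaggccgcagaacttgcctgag
The Slc16a3 window lies at chr11:120948817-120949066 on the plus strand and has matches 27 and 14 bases before the start. The Pgk1 window, chrX:106186850-106187099 on the plus strand, has them at 150 and 131 bases. The Hk2 window is on the minus strand at chr6:82774455-82774704, with matches at 226 and 52 bases. The Pgam1 window, chr19:41911621-41911870 on the plus strand, has a single match at 114 bases. A match is a run of letters and not a measured binding site.

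On each array, 43020 spots for genes were read, none saturated. In the culture channel, 51% of them were well above background in iTreg, 48.9% in Th9 and 50.5% in Th2, against 53% to 54.1% in naive cells. The median SD of log2 ratios over the 10 spots of a replicated probe was between 0.0719 and 0.0845. Values with ± carry the spot error that the scanner software reports (log2, 1 array). The number of arrays limits the precision, and no p-value can be given. The lineage genes went with the labels: Foxp3 had a log2 ratio of 3.49 in iTreg, Il9 of 6.52 in Th9 and Il4 of 5.08 in Th2, each the highest of the 3 cultures. All 7 T cell markers were above background in each channel, and 1 of them was at least 2-fold lower than in naive cells in iTreg, 6 in Th9 and 5 in Th2, with median log2 ratios of -0.48, -1.57 and -1.37. The naive preparation also gave signal for other cell types. All 7 NK cell markers were above background there, with summed intensities of 7418 in iTreg, 5637 in Th9 and 12303 in Th2, against 76869, 78817 and 82481 in the naive channels of the same arrays. Gzma alone gave 661, 2998 and 9332 of these sums, against 58808, 60966 and 65040 in naive cells. Not above background in the culture channel were 3 of the markers in iTreg, 3 in Th9 and 2 in Th2, with Ncr1 and Klrb1c among them each time. Myeloid markers (8 genes) summed to 18755 in iTreg, 8787 in Th9 and 8824 in Th2, against 23739, 21317 and 21577 in naive cells. Itgam alone gave 16752 of that sum in iTreg, 7004 in Th9 and 7346 in Th2, against 18488, 15849 and 16246 in naive cells, while S100a9 had log2 ratios of -2.23, -2.85 and -4.24. Lyz2, a defining myeloid gene, was not above background in any culture. What these cells contribute to the ratios below was not tested. In RNA from a whole culture, fewer cells of a type and less RNA per cell cannot be told apart.

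Most of the pathway was higher in all 3 cultures than in naive cells. Of the 38 genes, 34 were well above background in both channels on each array. In iTreg, 23 of these 34 lay at least 2-fold above naive cells, against 10.2% of 11119 genes on that array. In Th9 it was 22, against 15.5% of 10781 genes, and in Th2 it was 20, against 14.8% of 10944. At least 2-fold lower were 0 in iTreg, 1 in Th9 and 1 in Th2, beside 8.15%, 15.6% and 14.5% of all genes on those arrays. The median log2 ratio of the 34 was 1.54 in iTreg, 1.74 in Th9 and 1.66 in Th2, and that of all measured genes -0.02, -0.01 and -0.02. On all 3 arrays, 20 of the 34 (58.8%) were at least 2-fold higher, as were 7.29% of 10347 genes, and 0 were at least 2-fold lower, as were 6.02%. The ratios of these 20 on single arrays ran between 2.25-fold and 30.0-fold. Among the 100 genes with the highest ratios on an array, 5 were members in iTreg, 5 in Th9 and 6 in Th2: Slc16a3, Tpi1, Hk2, Aldoc and Pgk1 on each array, and Pgam1 in Th2.

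**Figure D1:**
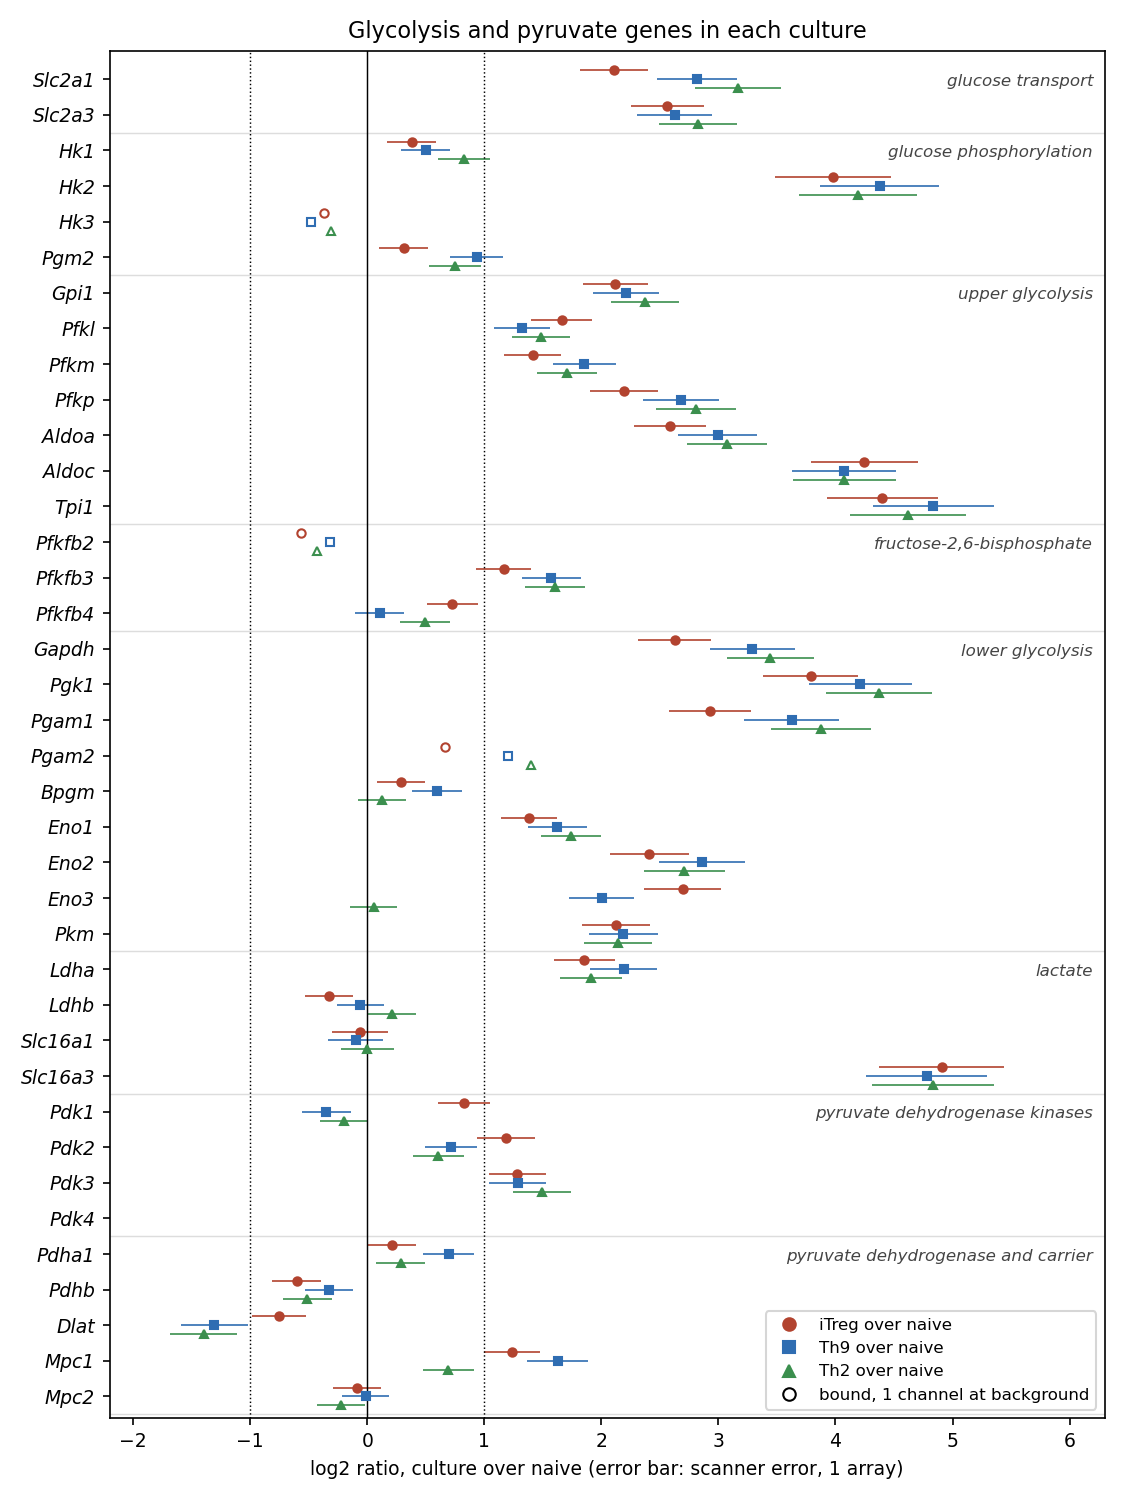
Log2 ratio of each member over naive cells (x axis) in iTreg, Th9 and Th2, members in the order of the pathway (y axis), with bars for the scanner software's error on 1 array. The dashed lines mark 2-fold. Slc16a3, Tpi1, Hk2, Pgk1 and Aldoc lie farthest to the right at log2 ratios between 3.79 and 4.91, and Eno3 is spread most, with 2.69 in iTreg, 2.00 in Th9 and 0.05 in Th2.

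Both glucose transporters were higher in each culture. Slc2a1 encodes GLUT1, the main glucose carrier of activated T cells. Its normalised intensity was 11992 in iTreg, 19289 in Th9 and 23994 in Th2, against 2784, 2738 and 2664 in the naive channels of those arrays. The log2 ratios were 2.11 ± 0.29, 2.82 ± 0.34 and 3.17 ± 0.37, so each culture lay far above its naive channel and iTreg lowest. Slc2a3, which encodes the high-affinity transporter GLUT3, had intensities of 15187, 17137 and 26167 in iTreg, Th9 and Th2, against 2572, 2775 and 3692 in naive cells. Its log2 ratios of 2.56, 2.63 and 2.83 were closer together than those of Slc2a1, but its naive channels differed more. On the log2 scale, the SD over the naive channels was 0.27 for Slc2a3 and 0.03 for Slc2a1. Over the culture channels it was 0.41 and 0.51.

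The hexokinases, which phosphorylate glucose and so hold it in the cell, differed by isoform. Hk2, the inducible isoform, had intensities of 2657 in iTreg, 4144 in Th9 and 4339 in Th2, against 169, 199 and 237 in naive cells. It was 15.7-fold, 20.8-fold and 18.3-fold higher, with log2 ratios of 3.98 ± 0.49, 4.38 ± 0.51 and 4.19 ± 0.50. Hk1, the isoform of most resting tissues, had log2 ratios of 0.38, 0.50 and 0.83, all under 2-fold, though its other probe gave 1.13 in Th2 and median centring in place of loess gave 1.23 in Th9 and 1.86 in Th2. The Hk2 ratio exceeded the Hk1 ratio by 3.60 ± 0.54 in iTreg, 3.88 ± 0.55 in Th9 and 3.37 ± 0.55 in Th2 on the log2 scale. Hk3, an isoform best known from myeloid cells, was well above background only in naive cells. Its log2 ratios of -0.37 ± 0.48 in iTreg, -0.54 ± 0.69 in Th9 and -0.31 ± 0.58 in Th2 were within the spot errors. Pgm2, a mutase that acts mainly on pentose phosphates, had log2 ratios of 0.31, 0.93 and 0.75. Pgm1, which is not among the 38 and links glucose 6-phosphate with glycogen, had 2.35, 2.25 and 2.55.

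All 7 measured genes of the steps that split the hexose into triose phosphates were at least 2-fold higher on the 3 arrays. Gpi1, the isomerase that makes fructose 6-phosphate, had log2 ratios of 2.12, 2.21 and 2.37 in iTreg, Th9 and Th2, and its other 2 probes gave 2.15 and 2.23 in iTreg. Phosphofructokinase, the committing step, has a liver, a muscle and a platelet isoform, named for where each was first described. Pfkl had log2 ratios of 1.66 in iTreg, 1.33 in Th9 and 1.48 in Th2. Pfkm, read from 10 spots with an SD of 0.04 to 0.05, had 1.41, 1.86 and 1.71. Pfkp had 2.19, 2.68 and 2.81 by its brightest probe but 0.66, 0.61 and 0.59 by the other, so its place as the phosphofructokinase with the highest ratio rests on the probe used.

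Aldolase cleaves fructose 1,6-bisphosphate, and both of its measured isoforms were higher. Aldoa, the ubiquitous form, had log2 ratios of 2.59, 3.00 and 3.07 in iTreg, Th9 and Th2. Aldoc, best known from brain, had intensities of 53792, 52942 and 56324, against 2836, 3139 and 3341 in naive cells, and was 19.0-fold, 16.9-fold and 16.9-fold higher. The Aldoc ratio exceeded that of Aldoa by 1.66 ± 0.55, 1.08 ± 0.56 and 1.00 ± 0.56. Among other processing settings the Th2 ratios reached 5.08 for Aldoc and 4.72 for Aldoa, so the size of that gap depends on the processing. Tpi1, which interconverts the triose phosphates, had intensities of 63850, 88058 and 82106, against 3028, 3083 and 3343. Its 21.1-fold, 28.6-fold and 24.6-fold excess came from the brighter probe, and the other probe gave log2 ratios of 3.70, 4.08 and 3.99.

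The PFKFB enzymes make and break fructose 2,6-bisphosphate, the strongest activator of phosphofructokinase. Pfkfb3, whose kinase activity prevails, had log2 ratios of 1.17 ± 0.23 in iTreg, 1.57 ± 0.25 in Th9 and 1.61 ± 0.25 in Th2. Its other probe stayed under 2-fold, at 0.86, 0.85 and 0.73. Pfkfb4 had log2 ratios of 0.73, 0.11 and 0.50. Pfkfb2 was well above background only in naive cells. Its log2 ratios of -0.56 ± 0.65, -0.32 ± 0.58 and -0.51 ± 0.51 were within the spot error in iTreg and Th9 and about equal to it in Th2. Within this family, then, 1 of 3 genes was past 2-fold, and by 1 of its 2 probes.

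The steps that follow, from glyceraldehyde 3-phosphate to pyruvate, yield the ATP of glycolysis, and 6 of the 8 genes measured there were past 2-fold in each culture. Gapdh, the dehydrogenase that opens this stretch, had intensities of 221903 in iTreg, 220208 in Th9 and 225074 in Th2, against 35929, 22512 and 20698 in naive cells. Its 3 naive channels differed more than those of any other member, with an SD of 0.43 on the log2 scale, where the median over members was 0.0696. The log2 ratios were 2.63, 3.29 and 3.44, and the culture channels, compared directly, differed by -0.10 for iTreg against Th2 and -0.06 for iTreg against Th9. The 7 Gapdh probes ranged between 1.90 and 2.68 in iTreg, 2.05 and 3.48 in Th9, and 2.16 and 3.59 in Th2. Whether transcripts of Gapdh pseudogenes bind these probes was not tested.

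Pgk1, the first ATP-making enzyme of the pathway, had intensities of 134843 in iTreg, 164509 in Th9 and 173179 in Th2, against 9767, 8884 and 8371 in naive cells. It was 13.8-fold, 18.5-fold and 20.7-fold higher. Pgam1, the mutase that moves the phosphate of 3-phosphoglycerate, had 63039, 89681 and 100235, against 8265, 7271 and 6810. Its log2 ratios of 2.93 ± 0.35, 3.62 ± 0.40 and 3.88 ± 0.43 put iTreg lowest, as for Pgk1. Pgam2, the muscle form, was above background only in the cultures, with lower bounds of 1.59-fold, 2.30-fold and 2.64-fold in iTreg, Th9 and Th2. On the log2 scale these bounds are 0.67, 1.20 and 1.40, and the spot errors of the ratios were 0.51, 0.48 and 0.58. Bpgm, which makes the 2,3-bisphosphoglycerate of red cells, had log2 ratios of 0.29, 0.60 and 0.13. The Pgam1 ratio exceeded the Bpgm ratio by 2.64, 3.03 and 3.75.

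**Figure D2:**
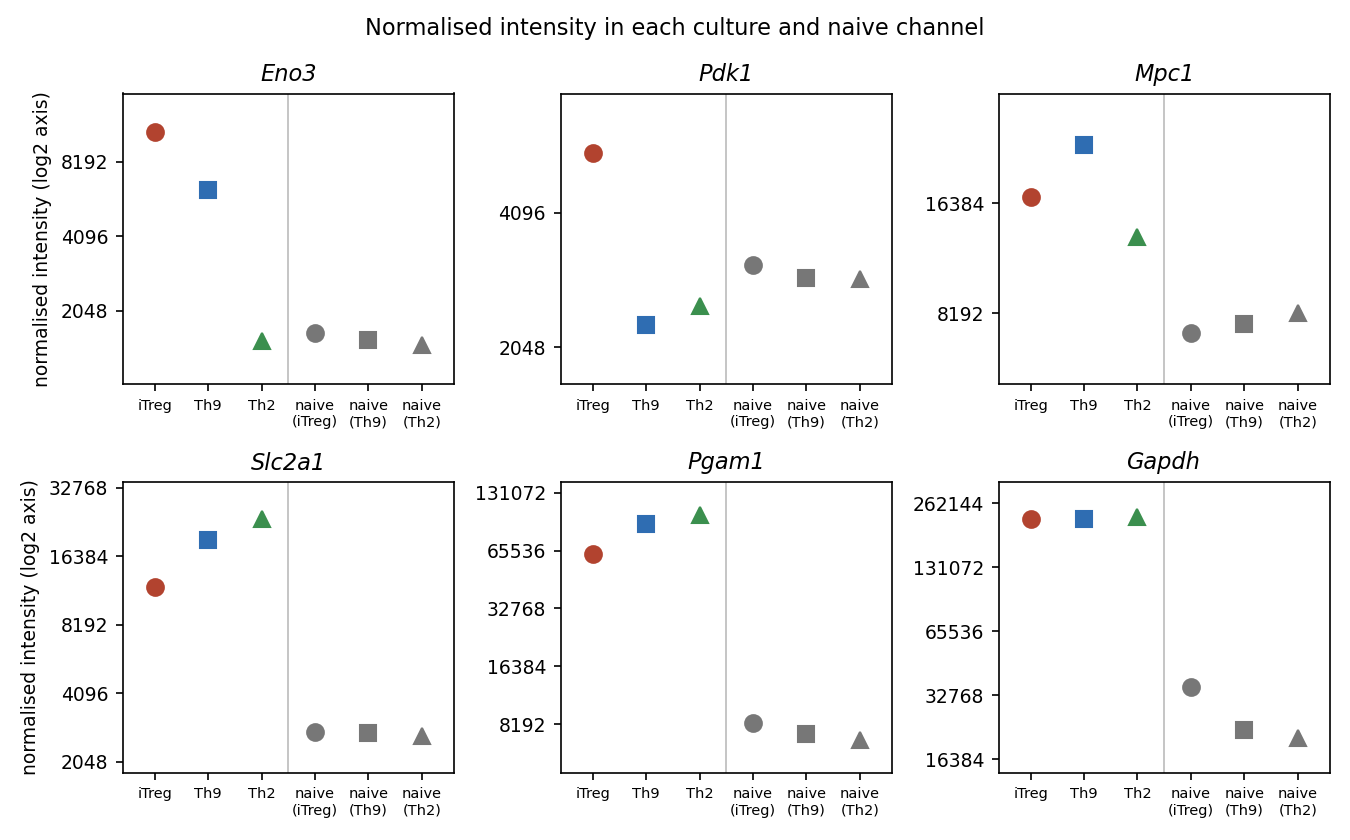
Normalised intensity (log scale) of 6 members in the culture channel and in the naive channel of the same array, for iTreg, Th9 and Th2. Each point is 1 channel of 1 array. Eno3 lies at the naive level only in Th2, Pdk1 lies above naive only in iTreg, and the naive channels of Gapdh are spread between 20698 and 35929.

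The enolases, which form phosphoenolpyruvate, include the member whose ratio differed most between cultures, Eno3. Eno1, the ubiquitous isoform, had log2 ratios of 1.38, 1.62 and 1.74 in iTreg, Th9 and Th2. Eno2, the isoform known as neuron-specific enolase, had 2.41, 2.86 and 2.71. Both ran close together across the cultures. Eno3, the muscle isoform, was read from 1 probe with 1 spot on each array. Its intensities were 10775 in iTreg, 6271 in Th9 and 1539 in Th2, against 1666, 1563 and 1482 in naive cells. Eno3 was 6.47-fold and 4.01-fold higher in iTreg and Th9, the cultures with TGF-beta 1, and 1.04-fold in Th2, within the spot error. Those cultures also differed from Th2 in IL-2, IL-4 and anti-interferon gamma, and the part of each cannot be told apart. On the log2 scale, the Eno3 ratio exceeded that of Eno1 by 1.31 ± 0.41 in iTreg and 0.38 ± 0.38 in Th9, and lay below it in Th2, with a difference of -1.69 ± 0.33. Under other processing settings the Th9 ratio of Eno1 reached 2.88 and that of Eno3 at most 2.30. In Th2, Eno1 reached 3.26 and Eno2 at most 3.10. The order of Eno1 against Eno3 in Th9 and against Eno2 in Th2 thus depends on the processing. Pkm, pyruvate kinase, had log2 ratios of 2.12, 2.19 and 2.14, nearly equal in the 3 cultures. Its splice forms are not separated by the probe used.

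For lactate formation and for lactate transport, 1 of the 2 isoforms was past 2-fold. Ldha, the subunit that favours lactate formation, had log2 ratios of 1.85 ± 0.26 in iTreg, 2.19 ± 0.28 in Th9 and 1.91 ± 0.27 in Th2, and its other 2 probes gave 1.70 and 1.73 in iTreg. Ldhb, the subunit that favours pyruvate, had -0.32, -0.06 and 0.21, and 0.31 in Th9 under median centring. Slc16a3 encodes MCT4, a lactate exporter of highly glycolytic cells. It had intensities of 22041, 17771 and 19949 in iTreg, Th9 and Th2, against 735, 647 and 700 in naive cells. Its ratios of 30.0-fold, 27.5-fold and 28.5-fold were the highest of the 34 genes in iTreg and Th2, and second to Tpi1 in Th9. Slc16a1, which encodes the transporter MCT1, had log2 ratios of -0.06, -0.10 and 0.00. These rest on 1 dim probe, with intensities of 176, 195 and 212, against 183, 208 and 212 in naive cells. The gap between the transporters, 4.97 ± 0.59, 4.88 ± 0.57 and 4.83 ± 0.57, was the widest of the isoform pairs compared.

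**Figure D3:**
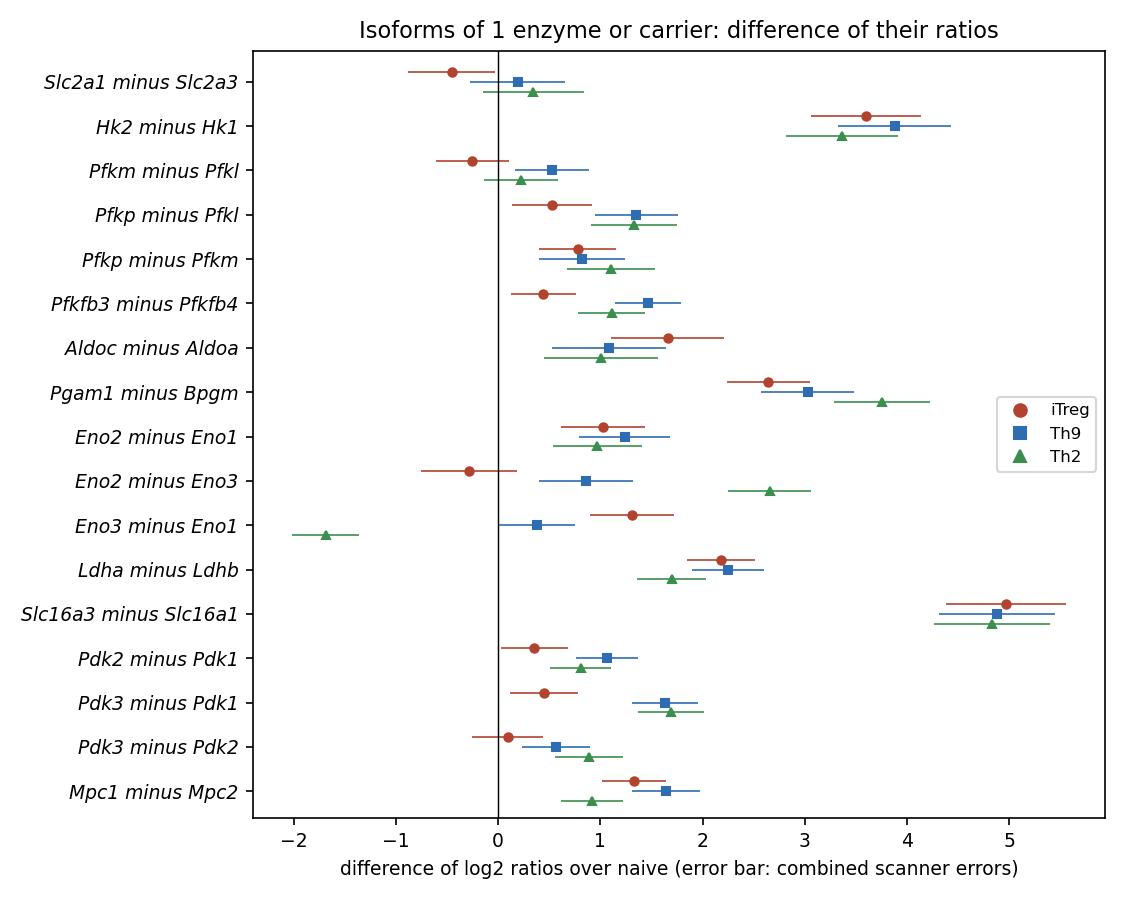
Difference of log2 ratios over naive between isoforms of a step (first minus second named), for iTreg, Th9 and Th2, with combined spot errors. The ratios are those after loess, and the bars do not cover the choice of scaling. Slc16a3 minus Slc16a1 and Hk2 minus Hk1 lie between 3.37 and 4.97 in all 3 cultures, and the pairs with Eno3 lie on both sides of 0.

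Genes for the entry of pyruvate into the mitochondrion showed smaller ratios. The kinases that inhibit pyruvate dehydrogenase differed by isoform. Pdk3 had log2 ratios of 1.28, 1.29 and 1.49 in iTreg, Th9 and Th2. Pdk2 had 1.19 ± 0.24, 0.72 ± 0.22 and 0.61 ± 0.22, past 2-fold in iTreg alone among the 3, and 0.92 there under median centring in place of loess. Pdk1 had intensities of 5574 in iTreg, 2302 in Th9 and 2531 in Th2, against 3137, 2932 and 2907 in naive cells, so it was above naive in iTreg and below it in the other two. Its log2 ratios were 0.83 ± 0.22, -0.35 ± 0.21 and -0.20 ± 0.20. Pdk4 was not above background in any channel. Under median centring the Pdk1 ratio in Th2 was 0.30, so its direction there depends on the scaling. In Th9 it was -0.09 under median centring, within the spot error.

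Of the complex itself, Pdha1 and Pdhb encode the subunits of the first component and Dlat the second, the acetyltransferase. Pdha1 had log2 ratios of 0.21, 0.69 and 0.28 in iTreg, Th9 and Th2, and Pdhb -0.60, -0.32 and -0.51. The direction of Pdhb also depends on the scaling, since median centring gave 0.43 in Th9 and 0.49 in Th2. Dlat had intensities of 294, 189 and 178, against 496, 467 and 468 in naive cells. It was the single member at least 2-fold lower in any culture, 2.47-fold in Th9 and 2.63-fold in Th2, and its log2 ratio in iTreg was -0.75 ± 0.23. With the scanner software's processed signals the log2 ratios were -1.04 in iTreg, -2.02 in Th9 and -2.05 in Th2, so the size of the difference depends on the processing. The carrier that brings pyruvate into mitochondria has a subunit encoded by Mpc1 and another by Mpc2. Mpc1 had intensities of 17068, 23671 and 13231, against 7230, 7656 and 8191 in naive cells, with log2 ratios of 1.24, 1.63 and 0.69. Its second probe gave 0.98 in iTreg, just under 2-fold. Mpc2, read from 10 spots, had -0.09, -0.01 and -0.23, with 0.33 in Th9 and in Th2 under median centring. The Mpc1 ratio exceeded it by 1.33 ± 0.31, 1.64 ± 0.33 and 0.92 ± 0.30.

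**Figure D4:**
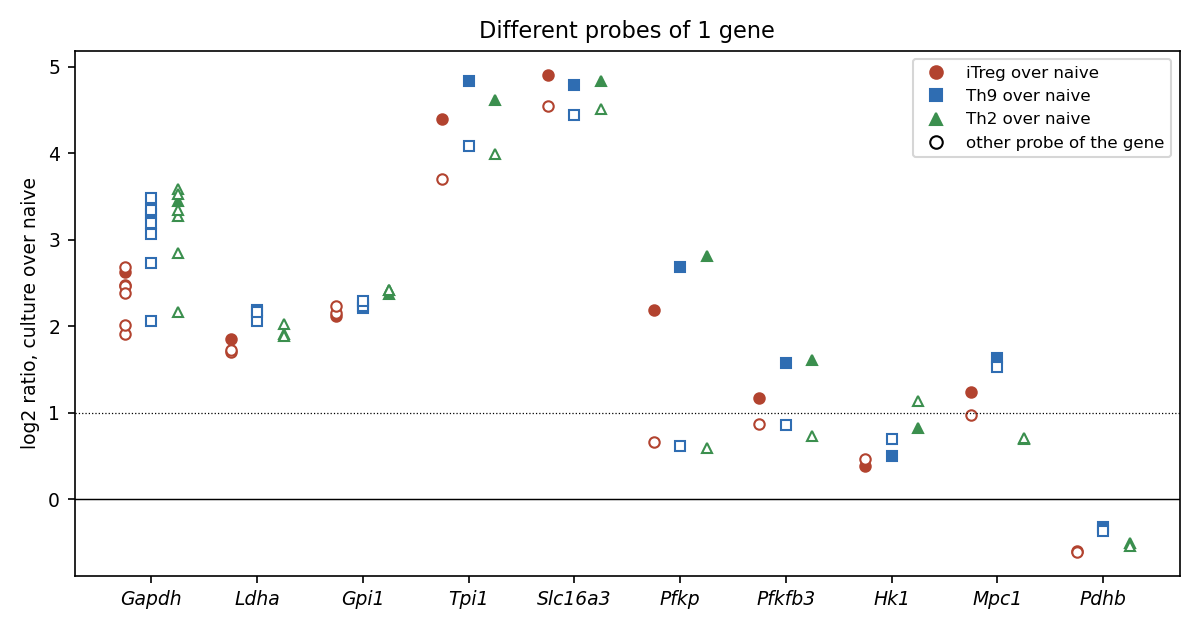
Log2 ratio over naive of every probe of the members with several probes, for iTreg, Th9 and Th2, with the brightest probe filled and the others open. Probes of 10 genes could be compared, and those of Gapdh and Pfkp differed by over 1 log2 unit on an array.

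Between the cultures, few of the 34 genes differed by 2-fold. For iTreg against Th2 there were 3, with Eno3 and Pdk1 higher and Slc2a1 lower in iTreg, where 13.6% of 10537 genes differed (6.86% higher, 6.69% lower). For iTreg against Th9 there was Pdk1 alone, higher in iTreg, where 13.1% of 10479 genes differed (6.8% higher, 6.29% lower). For Th9 against Th2 there was Eno3 alone, higher in Th9, where 2.66% of 10457 genes differed. As shares of the 34 these counts are 8.82%, 2.94% and 2.94%. Eno3 was 6.23-fold higher in iTreg than in Th2 (log2 2.64 ± 0.39) and 3.86-fold higher in Th9 than in Th2 (1.95 ± 0.35). Pdk1 was 2.26-fold higher in iTreg than in Th9 (1.18 ± 0.30) and 2.04-fold higher in iTreg than in Th2 (1.03 ± 0.30). Slc2a1 differed by -1.06 ± 0.47 in iTreg against Th2 and by -0.71 in iTreg against Th9.

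The ratio over naive was lowest in iTreg for most of the genes that were high in all cultures. Of the 20 genes past 2-fold in each culture, 17 had their lowest ratio in iTreg, 2 in Th9 and 1 in Th2. That count was not made over all genes, so whether the order is particular to these 20 was not tested. Among all genes, fewer were past 2-fold in iTreg in both directions. There, 10.2% were higher and 8.15% lower, against 15.5% and 15.6% in Th9 and 14.8% and 14.5% in Th2. For the 20 genes, iTreg lay below Th2 by more than the combined spot error for 7, and below Th9 for 6. Over all 34 genes the median difference was -0.21 for iTreg against Th2, -0.27 for iTreg against Th9 and -0.04 for Th9 against Th2. Over all measured genes it was -0.00, 0.01 and -0.02, a median that loess holds near 0. Each ratio also carries its naive channel, and what that channel adds to the order of the cultures was not tested. For Gpi1 the naive channel was highest on the iTreg array, at 30974, against 27838 in Th9 and 26187 in Th2. For Slc2a3 it was lowest there. With the culture channels compared directly, the median difference over 35 genes was -0.12 for iTreg against Th2 and -0.18 for iTreg against Th9. Markers of proliferation moved the same way: all 5 were at least 2-fold higher on each array, with summed intensities of 11616 in iTreg, 35112 in Th9 and 29962 in Th2, against 3896, 4090 and 4160 in naive cells, and their part in these differences was not tested.

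These differences depend on how the arrays are scaled. Loess removes any trend of the ratio with brightness, and 13 of the 34 genes in iTreg, 13 in Th9 and 14 in Th2 were among the brightest 10% of genes. With median centring in place of loess, 17 genes differed by 2-fold between iTreg and Th2, of which 1 was higher and 16 lower in iTreg, and 9 were lower in iTreg than in Th9 with 0 higher. That scaling also moved the median of all genes by -0.59 for iTreg against Th2 and -0.38 for iTreg against Th9. Relative to all genes, it left 1 higher and 5 lower against Th2, and 1 higher and 2 lower against Th9. With the Cy5 channels compared directly, Slc2a1 differed by -0.95 for iTreg against Th2, under 2-fold, while Eno3 differed by 3.00 and Pdk1 by 1.28. Median centring gave 2.69 for Eno3 and 0.97 for Pdk1 relative to all genes, and 0.38 for Pdk1 without that correction. Eno3 thus kept its 2-fold difference between iTreg and Th2 under each of these scalings, and Pdk1 did not.

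**Figure D5:**
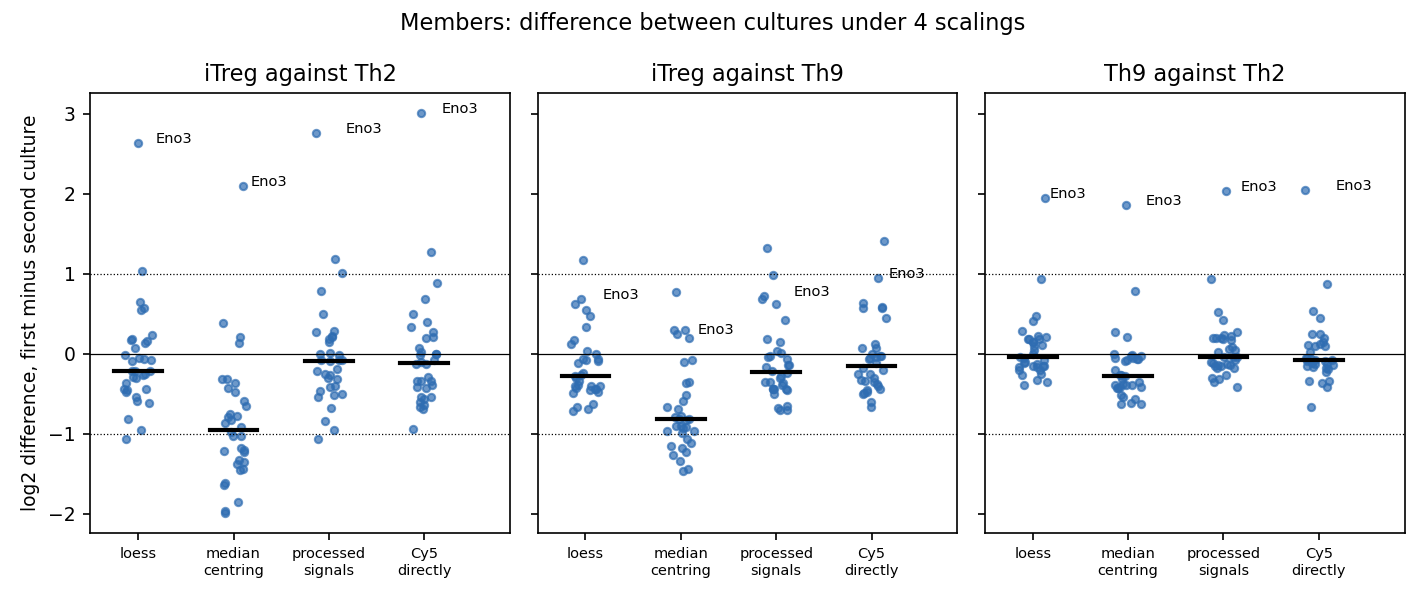
Log2 difference of the 34 members for iTreg minus Th2, iTreg minus Th9 and Th9 minus Th2, under 4 scalings (x axis). Each point is 1 gene, the bars are medians and the dotted lines mark 2-fold. The points of both comparisons with iTreg move down under median centring, and Eno3 is the highest point for iTreg against Th2 under each scaling.

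Other genes around the pathway were measured as lists. Of 12 other sugar transporters and entry enzymes measured on each array, 4 were at least 2-fold higher and 1 lower on all 3, beside 7.29% and 6.02% of all genes. The highest in iTreg and Th9 was Slc2a6, a transporter of the same family, with log2 ratios of 3.52 in iTreg, 3.84 in Th9 and 3.10 in Th2. Galk1, galactokinase, was highest in Th2, with 2.77, 3.16 and 3.27 in the same order of cultures. Adpgk, an ADP-dependent glucokinase, had -1.17, -1.02 and -1.70. Among 12 glycogen genes 5 were higher and 0 lower, led by Pygl, the liver glycogen phosphorylase, with 4.66, 5.19 and 4.44. The lowest were the phosphorylase kinase genes Phkg2, with -0.08, -0.10 and 0.01, and Phkb, with 0.43, 0.44 and -0.17. In the pentose phosphate pathway, which branches off at glucose 6-phosphate, 0 of 9 were higher and 1 was lower on all 3 arrays, counts near the shares of all genes. Pgls, the lactonase, had 0.99, 1.15 and 1.04, Tkt, transketolase, 0.82, 1.31 and 1.11, and Taldo1, transaldolase of the same branch, -1.41, -1.48 and -1.59.

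Neighbouring routes differed among themselves. Of 5 genes that lead from 3-phosphoglycerate to serine and glycine, 0 were at least 2-fold higher in iTreg, 3 in Th9 and 3 in Th2, beside 10.2%, 15.5% and 14.8% of all genes, and the median log2 ratios were 0.20, 1.27 and 1.07. Psat1, the aminotransferase of that branch, had 0.84 ± 0.22 in iTreg, 2.62 ± 0.32 in Th9 and 2.94 ± 0.35 in Th2, and Shmt1, a serine hydroxymethyltransferase, had -0.04, 0.40 and 0.46. Pcx, pyruvate carboxylase, which feeds pyruvate into the citric acid cycle as oxaloacetate, had 1.25 ± 0.25, 3.63 ± 0.43 and 3.03 ± 0.38. In the same list of gluconeogenic genes, G6pc3, a glucose 6-phosphatase, had 0.27, 1.39 and 1.27, and Pck2, mitochondrial phosphoenolpyruvate carboxykinase, 0.10 in iTreg and 0.15 in Th2, and was above background on the Th9 array only in the naive channel. Of 9 genes of the glycerol phosphate and NADH shuttles, 0 were higher in iTreg, 3 in Th9 and 3 in Th2, beside 10.2%, 15.5% and 14.8% of all genes. At least 2-fold lower were 1, 0 and 0, beside 8.15%, 15.6% and 14.5%. These counts are small, and the medians were 0.28, 0.40 and 0.25. Got1, the cytosolic aspartate aminotransferase, had 0.61, 2.25 and 2.06, and Got2, the mitochondrial one, 0.92, 1.35 and 1.39. Gpd2, the mitochondrial glycerol phosphate dehydrogenase, had -1.03, 0.40 and 0.25, and Slc25a11, the oxoglutarate carrier, ran the other way with 0.06, -0.83 and -0.90. Of 4 other genes of the pyruvate dehydrogenase complex and its phosphatases, 0 were higher and 0 lower on all 3 arrays, beside 7.29% and 6.02% of all genes. Dld, the shared dehydrogenase subunit, had 0.18, 0.82 and 0.67, and Pdhx, which anchors that subunit, -0.30, -0.98 and -1.04. The phosphatase genes Pdp1 and Pdp2 had 0.30, -0.20 and -0.68 for Pdp1 and -0.46, 0.04 and 0.03 for Pdp2.

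Among 7 paralogs and partners of lactate transport, 1 was at least 2-fold higher and 1 lower on all 3 arrays, beside 7.29% and 6.02% of all genes. Bsg, the chaperone of MCT1 and MCT4 at the membrane, was the higher one. It had log2 ratios of 1.81 ± 0.27 in iTreg, 2.94 ± 0.35 in Th9 and 3.24 ± 0.37 in Th2. Tigar, a phosphatase that lowers fructose 2,6-bisphosphate, was lower, at -1.18, -1.30 and -1.18. Of 18 regulators, 5 were higher and 1 was lower on all 3, beside the same shares of all genes. Egln3, a prolyl hydroxylase that acts on hypoxia-inducible factors and is itself induced by them, had the highest, 5.36, 6.04 and 6.33. Txnip, which restrains glucose uptake, had -0.74, -2.51 and -2.04, and Foxk1, a forkhead factor, -1.09, -1.01 and -1.48. Hif1a and Myc, named after their values were seen, had 0.57, 1.14 and 1.65 for Hif1a and 0.64, 0.50 and 0.78 for Myc. In the promoters, ACGTG stood in the most upstream window of 9 of the 19 members with an entry that were past 2-fold in each culture (47.4%), and in 5 of the other 18 (27.8%), and CACGTG in 2 and 2. These counts are small, and no difference between them was tested. The share of all genes given earlier covers genes whether or not they were above background here.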

How the data were processed

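Expression was measured on 3 Agilent 2-colour arrays. Per the file headers, the scanner output gives each spot's signal and background intensity, a background-subtracted and dye-normalised intensity, the log10 Cy5/Cy3 ratio with an error, and a p-value of the software's own. These were made by Agilent Feature Extraction, version 11.0.1.1 in the headers and 9.3.2.1 in the submitters' processing notes. The authors' deposited series values were found to be the log2 ratio of processed signals plus 1 constant per array (0.037 for iTreg, 0.021 for Th9 and 0.056 for Th2; 100% of single-spot probes within 0.001). The p-values were not used as tests between conditions.

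Median intensities were background-corrected by normexp (offset 50) and ratios normalised by loess within each array, with control and outlier spots given no weight (limma 3.58.1 in R 4.3.3, and the data.table package, version 1.17.8). Later steps used Python 3.11.15, pandas 2.3.3, numpy 2.4.6 and matplotlib 3.10.9. Spots of a probe were averaged. Probes were named through RefSeq accessions without versions (26055 of 39429 probes, 66.1%; assembly GRCm38.p6), and the brightest probe of a gene was used. A gene was measured where both channels were well above background. Where 1 channel was not, a bound was set from the lowest signal above background. Intensities are those of each channel after loess and scaling of mean intensity between arrays, and can carry dye bias. Errors of differences are root sums of squares of spot errors.

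With 1 array per culture no test was possible, and genes were classed by size, 2-fold. Background correction and loess were checked on simulated arrays in which a small share of probes changed, as many up as down. That check does not cover a group of bright genes that rise together. Nor does it cover probe naming, bounds, or differences between cultures. The members, the other lists and the tests were chosen with earlier results of these data known, and all 38 members plus the highest and lowest member of each list were to be named. Whether 1 extract of naive RNA served all arrays is not given in the labels. Alternatives were median centring, the processed signals, the series values, an offset of 10, the mean over probes, no filter on dim probes, a 1.5-fold threshold, direct comparison of Cy5 channels and leaving out each array. Protein sequences were not used here, and the marker lists of some other cell types are not reported here.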

Additional observations from a re-analysis of the deposited data

Results flagged for a closer look

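Pdk1 was above naive cells in iTreg (log2 ratio 0.83 ± 0.22) and below them in Th9 (-0.35 ± 0.21), a difference of 1.18 between 2 cultures that moved in opposite directions. Under median centring the Th9 ratio was -0.09, within the spot error, and the difference 0.77. Ldhb was below naive cells in iTreg (-0.32 ± 0.21) and above them in Th2 by about its spot error (0.21 ± 0.21), a difference of -0.54. Under median centring that difference was -1.35. Each rests on 1 array per culture, and neither difference was tested.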

How the results depend on the processing

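Of the counts and medians under other settings, 108 were close to those reported and 17 were not, and no result past 2-fold changed direction. Leaving out an array in turn gave 20 to 22 members at least 2-fold higher on the remaining arrays, and 0 to 1 lower, the 1 being Dlat without iTreg. Median centring in place of loess gave median log2 ratios of 2.34 in Th9 and 2.15 in Th2, 1 member lower in iTreg and 1 lower on all 3 arrays. It gave 9 members that differed between iTreg and Th9 (median -0.82) and 17 between iTreg and Th2 (median -0.95). The processed signals gave 1 member lower in iTreg and 1 on all 3 arrays, and the series values 2 that differed between iTreg and Th9. A 1.5-fold threshold gave 2 lower in iTreg, 1 lower on all 3 arrays, and 7, 7 and 2 that differed for iTreg against Th9, iTreg against Th2 and Th9 against Th2. The 20 members past 2-fold in each culture were the same genes under the processed signals, the series values, the offset of 10, the mean over probes and no filter. Median centring kept 18, lost Pdk3 and Pfkfb3 and added Mpc1. Of the values of single members, 1177 stayed within the spot error and 149 moved further, 121 of them under median centring. No paired analysis was possible because each group has 1 sample. The cause of these changes was not tested. Genes above background in 1 channel only, Hk3, Pfkfb2 and Pgam2, are not counted among the 34.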
